A study of Mus musculus with 9 samples.

Results

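The striated muscle myosin heavy chains are the motor proteins of the thick filament in skeletal and cardiac muscle, and their genes were followed here in brown fat collected for RNA sequencing. The 8 members were taken by name as Myh1, Myh2, Myh4, Myh3, Myh8, Myh7, Myh6 and Myh7b, of 49315 genes in the count tables. All mice were male, diet-induced obese C57Bl/6J animals that received a 60% fat diet, weighed about 50 g and were housed singly and not at thermoneutrality. Their age was given as 14 weeks, with 3 weeks of acclimation. One group of 5 mice received a daily subcutaneous dose of cotadutide, a peptide agonist of the GLP-1 and glucagon receptors, for 28 days, and the other group of 4 mice received vehicle in the same way. Each library came from 1 mouse.

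A myosin heavy chain carries the ATPase head and the rod that packs into the thick filament, and the isoform present sets much of the contraction speed of a muscle fibre. Myh4, Myh1 and Myh2 encode the fast isoforms of adult type IIB, IIX and IIA fibres. Myh3 and Myh8 encode the embryonic and perinatal isoforms, which are also used again in regenerating fibres. Myh7 encodes the isoform of slow fibres and of the cardiac ventricle, Myh6 the other cardiac isoform, and Myh7b an ancient relative of both. Brown adipocytes and skeletal muscle arise from related precursors, and brown fat depots lie against muscle.

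The 9 libraries held 10.8 M to 25.1 M counts (M, 1e6 counts), with a mean of 15.9 M in cotadutide and 20.8 M in vehicle mice. Levels are given as CPM, the counts of a gene per 1e6 counts of the library, after scaling by trimmed mean of M-values (TMM). The brown fat label was borne out by Ucp1, the uncoupling protein of brown adipocytes, which averaged 5879 ± 758 CPM in cotadutide and 4774 ± 960 CPM in vehicle mice (SD, n = 5 and 4). Skeletal muscle mRNA was present in every library. The summed level of 10 other skeletal muscle genes, among them Acta1, the skeletal actin, ran from 2827 to 10838 CPM in cotadutide and from 12748 to 26307 CPM in vehicle mice. Of genes used to mark heart muscle, Nppb and the light chain Myl7 had 0 counts in all libraries and Nppa averaged 0.0308 CPM in both groups. The others were detected in every library, with Tnni3 at 0.222 CPM in cotadutide and 0.479 CPM in vehicle mice, Tnnt2 at 0.673 CPM in cotadutide and 2.168 CPM in vehicle mice, Actc1 at 1.96 CPM in cotadutide and 7.2 CPM in vehicle mice, and Ryr2 at 10.2 CPM in cotadutide and 15.3 CPM in vehicle mice (means). In bulk tissue, fewer muscle cells and less of an mRNA per muscle cell cannot be told apart.

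The promoters of the 5 members on chromosome 11 are shown because the 4 members that passed the test described next are all among them. Each is the RefSeq window of 300 bases on the plus strand of GRCm38.p6, from 250 bases before to 50 after the RefSeq start. For Myh1 and Myh4 this start differs from the gene start given with their levels below. Capitals mark TATAAA and the MEF2 motif, the binding motif of a muscle transcription factor family, on the strand shown.
Myh3, chr11:67078050-67078349: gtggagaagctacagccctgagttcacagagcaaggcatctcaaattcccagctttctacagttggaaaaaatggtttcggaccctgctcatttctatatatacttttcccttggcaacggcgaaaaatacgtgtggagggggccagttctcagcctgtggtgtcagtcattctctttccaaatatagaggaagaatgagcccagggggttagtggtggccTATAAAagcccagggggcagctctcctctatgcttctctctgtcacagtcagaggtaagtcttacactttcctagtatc
Myh2, chr11:67170777-67171076: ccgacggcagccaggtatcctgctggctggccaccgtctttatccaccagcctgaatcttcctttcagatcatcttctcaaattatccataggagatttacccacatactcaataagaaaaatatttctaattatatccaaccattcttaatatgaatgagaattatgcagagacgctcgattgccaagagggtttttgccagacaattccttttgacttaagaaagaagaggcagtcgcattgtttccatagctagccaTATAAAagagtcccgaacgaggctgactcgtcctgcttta
Myh1, chr11:67199852-67200151: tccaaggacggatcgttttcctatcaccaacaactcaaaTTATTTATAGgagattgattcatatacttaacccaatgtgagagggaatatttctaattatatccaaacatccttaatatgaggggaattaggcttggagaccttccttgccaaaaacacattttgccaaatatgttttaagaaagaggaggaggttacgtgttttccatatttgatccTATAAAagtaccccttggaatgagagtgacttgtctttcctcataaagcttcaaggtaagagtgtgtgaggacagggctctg
Myh4, chr11:67237562-67237861: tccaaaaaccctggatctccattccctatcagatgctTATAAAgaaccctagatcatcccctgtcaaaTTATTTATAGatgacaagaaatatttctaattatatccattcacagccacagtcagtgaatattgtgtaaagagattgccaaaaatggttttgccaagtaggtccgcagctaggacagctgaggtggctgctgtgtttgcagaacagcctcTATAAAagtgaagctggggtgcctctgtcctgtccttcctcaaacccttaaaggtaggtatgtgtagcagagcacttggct
Myh8, chr11:67276874-67277173: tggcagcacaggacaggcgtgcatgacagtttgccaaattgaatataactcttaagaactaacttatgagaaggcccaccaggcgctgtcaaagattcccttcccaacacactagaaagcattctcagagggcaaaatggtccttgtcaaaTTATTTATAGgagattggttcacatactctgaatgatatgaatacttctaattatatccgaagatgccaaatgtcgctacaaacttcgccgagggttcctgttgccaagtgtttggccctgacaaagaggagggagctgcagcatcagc
The MEF2 motif was found in the windows of Myh1, Myh4 and Myh8, with the same letters in each, and in 3.19% of 32817 promoter windows searched on both strands. Its first base lay at -211 in Myh1, -182 in Myh4 and -99 in Myh8, counted from the RefSeq start base as 0. A TATAAA match began at -32 in Myh1, -31 in Myh4 and -29 in Myh3, and at 10 in Myh2, and 13.6% of all windows held one. TATAAA matches on the other strand overlapped the MEF2 match of Myh1, Myh4 and Myh8. A further match on the strand shown lay at -213 in Myh4. Neither motif was matched in the windows of Myh7 and Myh7b, while that of Myh6 held TATAAA at 1 and no MEF2 motif.

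The slow and cardiac members each host a microRNA between their exons, shown here with the seed (bases 2 to 8) in capitals to compare the hosts.
mmu-miR-208a-3p, in Myh6: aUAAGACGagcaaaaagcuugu
mmu-miR-208b-3p, in Myh7: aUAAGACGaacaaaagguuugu
mmu-miR-499-5p, in Myh7b: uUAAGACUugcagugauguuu
The miR-208a and miR-208b seeds were the same, UAAGACG, and that of miR-499 was UAAGACU. Mature microRNAs are not measured by polyA libraries, and the precursor genes had 0 counts except Mir208b, with 0 counts in cotadutide and 4 in vehicle mice.

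The adult fast myosin mRNAs were all lower in cotadutide than in vehicle brown fat. Myh2 was 4.72 times lower, Myh1 3.47 times and Myh4 2.64 times, and for each of them every cotadutide mouse lay below every vehicle mouse. By edgeR, with quasi-likelihood tests and p-values adjusted over all 14747 genes tested, 4 of the 8 members were lower (adjusted p under 0.05) and none was higher. Of all genes tested, 18.7% changed in either direction, 9.34% were lower, and 7.78% had every cotadutide library below every vehicle library. All 8 members passed the filter on low counts, but Myh3 did so through the vehicle mice, since 2 of 5 cotadutide and 4 of 4 vehicle libraries reached its level of 0.543 CPM. The median log2 fold change of the members was -1.43, beside 0.0031 over all genes tested. The number of members called depended on single mice. Leaving out vehicle mouse 1 or cotadutide mouse 2 brought it to 0, vehicle mouse 2 to 1, and any of vehicle mouse 3, vehicle mouse 4 and cotadutide mouse 4 to 2.

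**Figure D1:**
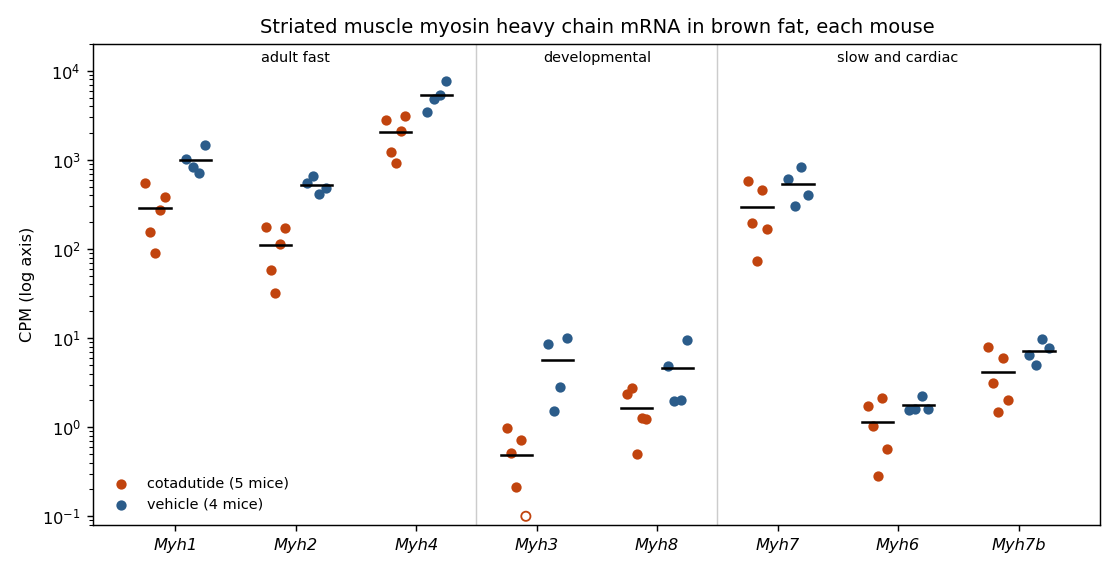
CPM on a log axis for each of the 8 members, with 1 point per mouse and cotadutide left of vehicle; the open circle is a library with 0 counts. The points of Myh1, Myh2, Myh4 and Myh3 do not overlap between groups, whereas those of the other 4 members do.

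Myh2 (ENSMUSG00000033196, mm10 chr11:67171027-67197517, plus strand) encodes the type IIA heavy chain. It had 177, 57.6, 32.4, 115 and 174 CPM in cotadutide mice 1 to 5, against 554, 652, 415 and 478 CPM in vehicle mice 1 to 4. The highest cotadutide mouse stood well below the lowest vehicle mouse. The log2 fold change was -2.24 ± 0.43 (SE; edgeR adjusted p = 0.0161).

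Myh1 (ENSMUSG00000056328, mm10 chr11:67200052-67224575, plus strand) encodes the type IIX heavy chain. It had 546, 156, 90.9, 277 and 383 CPM in cotadutide mice, against 1012, 823, 718 and 1483 CPM in vehicle mice. Cotadutide mouse 1 was the nearest to the vehicle group. The log2 fold change was -1.80 ± 0.44 (SE; edgeR adjusted p = 0.0243).

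Myh4 (ENSMUSG00000057003, mm10 chr11:67238029-67260446, plus strand) encodes the type IIB heavy chain and was the most abundant member. It had 2823, 1229.9, 931, 2114 and 3087 CPM in cotadutide mice, against 3460, 4873, 5374 and 7761 CPM in vehicle mice. The groups were separated by a narrow gap, between cotadutide mouse 5 and vehicle mouse 1. The log2 fold change was -1.40 ± 0.35 (SE; edgeR adjusted p = 0.0254).

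The developmental isoforms were scarce, and the embryonic one had the greatest log2 difference of the 8 members. Myh3 (ENSMUSG00000020908, mm10 chr11:67078300-67102291, plus strand) had 0.976, 0.512, 0.213, 0.715 and 0 CPM in cotadutide mice, against 8.62, 1.52, 2.82 and 9.93 CPM in vehicle mice. These values rest on 43 counts in all cotadutide libraries and 491 in all vehicle libraries, and 0 counts in cotadutide mouse 5 allow a level of up to 0.279 CPM. Vehicle mice 1 and 4 were high and vehicle mice 2 and 3 low, and all 4 stood above every cotadutide mouse. The log2 fold change was -3.41 ± 0.66 (SE; edgeR adjusted p = 0.0163).

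Myh8 (ENSMUSG00000055775, mm10 chr11:67277124-67308634, plus strand), the perinatal isoform, had 2.36, 2.75, 0.497, 1.26 and 1.24 CPM in cotadutide mice, against 4.85, 1.97, 2.00 and 9.49 CPM in vehicle mice. The groups overlapped, and vehicle mice 1 and 4 were the high ones, as for Myh3. Its log2 fold change of -1.46 ± 0.54 (SE) did not pass the test (edgeR adjusted p = 0.079), and without vehicle mouse 4 it was -0.84 (edgeR adjusted p = 0.223).

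None of the slow and cardiac members passed the test. Myh7 (ENSMUSG00000053093, mm10 chr14:54970688-54994634, minus strand), the slow isoform, had 587, 197, 73.0, 462 and 169 CPM in cotadutide mice, against 605, 303, 830 and 399.6 CPM in vehicle mice. The groups overlapped widely, and cotadutide mice 1 and 4 lay within the vehicle range. The log2 fold change was -0.84 ± 0.52 (SE; edgeR adjusted p = 0.268).

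Myh6 (ENSMUSG00000040752, mm10 chr14:54941981-54966927, minus strand), the other cardiac isoform, had 1.75, 1.02, 0.284, 2.14 and 0.57 CPM in cotadutide mice, against 1.55, 1.602, 2.24 and 1.62 CPM in vehicle mice. Its log2 fold change was -0.53 ± 0.42 (SE; edgeR adjusted p = 0.392). Myh7b (ENSMUSG00000074652, mm10 chr2:155611212-155634307, plus strand) had 8.01, 3.14, 1.49, 5.99 and 2.00 CPM in cotadutide mice, against 6.45, 5.01, 9.71 and 7.82 CPM in vehicle mice. Its log2 fold change was -0.76 ± 0.42 (SE; edgeR adjusted p = 0.215). For both genes the groups overlapped, with cotadutide mice 1 and 4 the highest of their group, as for Myh7.

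**Figure D2:**
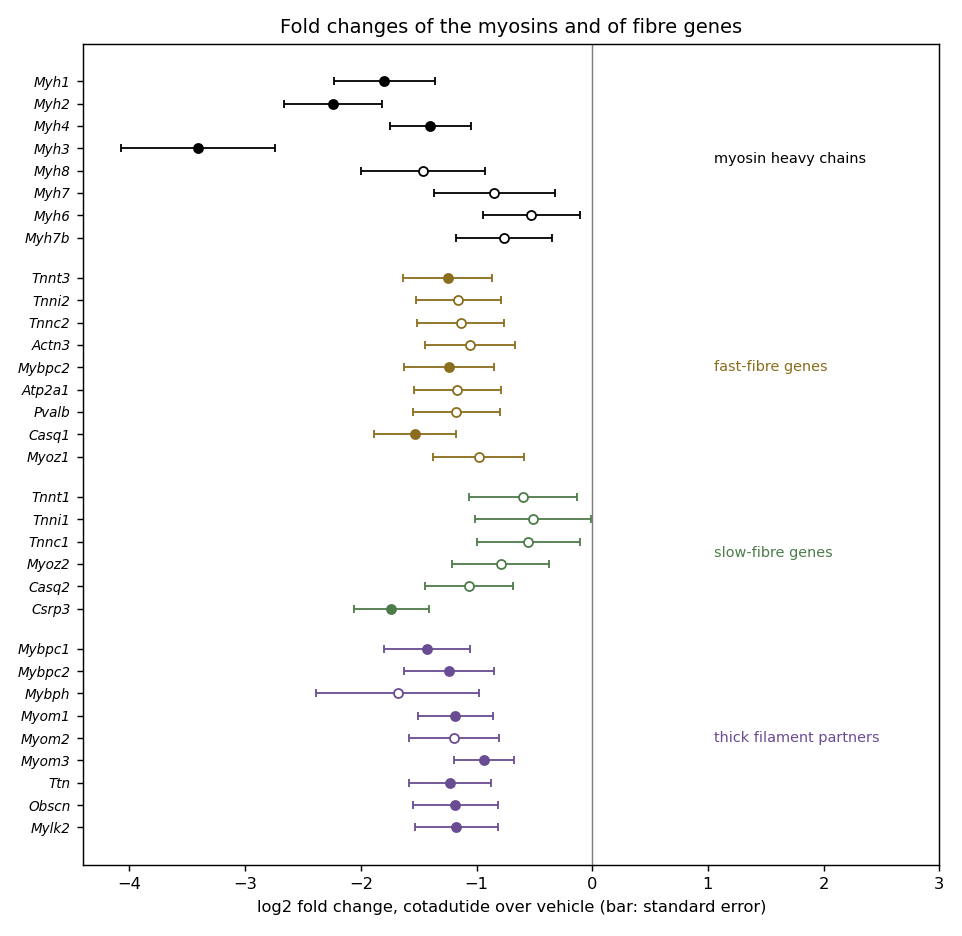
Log2 fold change of cotadutide over vehicle with its standard error, from the edgeR fit over all genes. Shown are each member and, in other colours, the tested fast-fibre genes, slow-fibre genes and thick filament partners. Filled points passed an adjusted p of 0.05 and open points did not. Myh3 stands lowest at -3.41, and the 3 adult fast isoforms lie between -2.24 and -1.40.

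Cotadutide mouse 3 was the lowest of its group for 7 of the 8 members, all except Myh3, for which mouse 5 was lowest. Per kilobase of exon, the order in vehicle mice was Myh4 (892 CPM per kb), Myh1 (159), Myh2 (73.5), Myh7 (62.3), Myh7b (1.09), Myh3 (0.945), Myh8 (0.389) and Myh6 (0.276). In cotadutide mice, Myh7 (34.6 CPM per kb) stood above Myh2 (15.6), and Myh3 had the lowest mean at 0.0798, with values that overlapped those of Myh8 and Myh6. The lengths used are unions of exons. They exceed the longest coding transcript of Myh8 (11772 against 6149 bases) and of Myh7 (8586 against 6230 bases), so this order depends on the length used. Levels per kb of Myh2 and Myh7 overlapped in both groups, as did those of Myh1 and Myh7 and of Myh1 and Myh2 in cotadutide mice. Myh4 stood above all other members in each group without overlap. In vehicle mice Myh7b overlapped Myh3, Myh3 overlapped Myh8 and Myh8 overlapped Myh6.

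Summed over the 8 members, the family had 2743 ± 1321 CPM in cotadutide and 7454 ± 1928 CPM in vehicle mice (SD, n = 5 and 4), a level 2.72 times lower under cotadutide. The other 10 muscle genes together were 2.33 times lower, at 7261 ± 3483 CPM in cotadutide and 16905 ± 6354 CPM in vehicle mice (SD, n = 5 and 4).

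Within the family, Myh2 took a smaller share in cotadutide mice. Its share of family CPM was 4.28%, 3.5%, 2.87%, 3.86% and 4.56% in cotadutide mice, against 9.80%, 9.79%, 5.64% and 4.71% in vehicle mice. The difference was -3.67 percentage points (exact two-sided permutation p = 0.00794, the smallest that 5 mice against 4 can give, unadjusted among 11 shares compared). The gap between the groups was narrow. Counting intervals of cotadutide mouse 5 (4.36% to 4.77%) and vehicle mouse 4 (4.61% to 4.80%) overlapped. Myh4 made up 75.4 ± 6.18% in cotadutide and 71.0 ± 6.70% in vehicle mice (SD, exact permutation p = 0.341). Myh7 made up 10.5 ± 4.84% in cotadutide and 7.62 ± 3.91% in vehicle mice (SD, exact permutation p = 0.349), and the Myh1 share of 10.0 ± 1.92% in cotadutide and 13.7 ± 3.45% in vehicle mice (SD) gave an exact permutation p of 0.0873. Myh3 made up 0.0195 ± 0.0117% in cotadutide and 0.0779 ± 0.0593% in vehicle mice (SD, exact permutation p = 0.0317). This test and the Myh3 ratio tests below concern a member that passed the filter on low counts through the vehicle mice. Their p-values are thus no independent support. Grouped by class, the adult fast isoforms made up 89.2 ± 4.95% in cotadutide and 92.1 ± 3.96% in vehicle mice (SD, exact permutation p = 0.357), and the slow and cardiac isoforms 10.7 ± 4.92% in cotadutide and 7.74 ± 3.95% in vehicle mice (SD, exact permutation p = 0.333). The Myh3 share difference missed an exact p of 0.05 when any 1 mouse other than vehicle mouse 2 was left out (exact permutation p = 0.0714 to 0.114). The Myh1 share passed it without vehicle mouse 3 (exact permutation p = 0.0357).

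**Figure D3:**
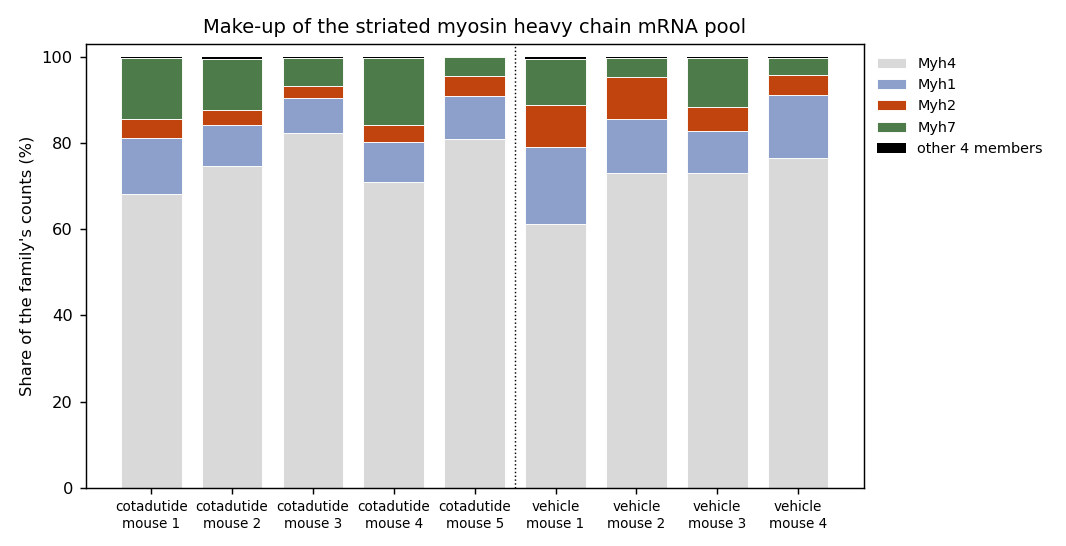
Share of Myh4, Myh1, Myh2, Myh7 and the other 4 members together in the summed CPM of the family for each mouse, in percent, cotadutide left of vehicle. Myh4 holds the largest share in every mouse, and the Myh2 share is lower in all 5 cotadutide mice than in the 4 vehicle mice.

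Measured against the 10 other muscle genes of the same library, Myh2 and Myh1 were also lower. These 10 genes include Tnnt3, Tnni2, Tnnc2 and Actn3, which are also among the fast-fibre genes below. Their sum is thus not neutral to fibre type. The log2 ratio of Myh2 to their sum averaged -6.14 ± 0.309 in cotadutide and -4.97 ± 0.59 in vehicle mice (SD), a difference of -1.17 (exact permutation p = 0.00794, unadjusted among 8 ratios). The groups did not overlap, but the gap was narrow, between -5.87 in cotadutide mouse 4 and -5.78 in vehicle mouse 4. For Myh1 it was -4.75 ± 0.3 in cotadutide and -4.06 ± 0.27 in vehicle mice (SD), a difference of -0.69 (exact permutation p = 0.0159). Its groups did not overlap either, with -4.31 in cotadutide mouse 1 and -4.22 in vehicle mouse 3. For Myh4 the difference was -0.17 (exact permutation p = 0.302) and for Myh7 0.21 (exact permutation p = 0.722). The Myh3 difference of -2.04 (exact permutation p = 0.0397) was -0.65 (exact permutation p = 0.325) when the pseudocount was 1 in place of 0.1, and it too missed an exact p of 0.05 without any 1 mouse other than vehicle mouse 2.

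**Figure D4:**
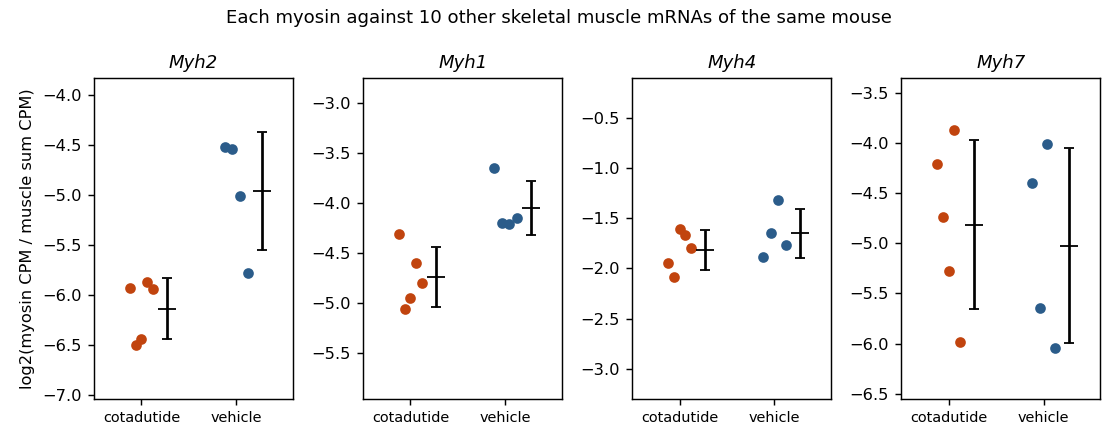
Log2 ratio of Myh2, Myh1, Myh4 and Myh7 to the summed CPM of 10 other skeletal muscle genes, 1 point per mouse, cotadutide left of vehicle. Myh2 and Myh1 show no overlap between groups, each by a narrow gap, whereas Myh4 and Myh7 points are intermingled.

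Ratios between members were compared for 7 pairs, chosen after their values were seen. Myh2 over Myh4 differed by -1.003 on the log2 scale between cotadutide and vehicle mice (exact permutation p = 0.0159) and missed 0.05 without cotadutide mouse 2, 3, 4 or 5 (exact permutation p = 0.0571 each). Its groups overlapped slightly, with the highest cotadutide value at -3.99 and the lowest vehicle value at -4.02. Myh3 over Myh8 differed by -2.02 (exact permutation p = 0.0159), a value that leans on the 0 counts of Myh3 in cotadutide mouse 5. It was -1.52 without that mouse (exact permutation p = 0.0286) and -1.01 with a pseudocount of 1 (exact permutation p = 0.0159), and it missed 0.05 without vehicle mouse 1, 3 or 4 (exact permutation p = 0.0536 to 0.0714). The other 5 pairs had exact permutation p-values of 0.0556 to 0.532.

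Of 9 genes of fast fibres outside the family, 3 were lower, beside 9.34% of all genes tested, and none higher, with a median log2 fold change of -1.17. They were Casq1, the calcium buffer of fast fibres (-1.53 ± 0.36, adjusted p = 0.0216), Tnnt3, fast troponin T (-1.25 ± 0.38, adjusted p = 0.0466) and Mybpc2, fast myosin-binding protein C (-1.23 ± 0.39, adjusted p = 0.049), all by edgeR with SE. Leaving out any of vehicle mice 1, 2 and 3 and cotadutide mice 2 and 4 brought this count to 0, and vehicle mouse 4 or cotadutide mouse 3 to 1. Leaving out cotadutide mouse 1 gave 6, and cotadutide mouse 5 gave 8. Of 6 slow-fibre genes, 1 was lower, Csrp3, a muscle LIM protein (-1.74 ± 0.32, edgeR adjusted p = 0.0156), and the median was -0.69. That call was lost when vehicle mouse 1, vehicle mouse 2 or cotadutide mouse 2 was left out, and omitting cotadutide mouse 1 gave 2. Tnnt1 and Tnni1, slow troponins, had values of -0.60 and -0.51 that did not pass (edgeR adjusted p = 0.388 and 0.495).

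Of 9 tested partners of myosin in the thick filament and M-band, 7 were lower, with a median log2 fold change of -1.20. Mybpc2 is counted both here and among the fast-fibre genes. Mybpc1, slow myosin-binding protein C, was at -1.43 ± 0.37 (edgeR adjusted p = 0.0284), Myom1, an M-band protein, at -1.18 ± 0.32 (edgeR adjusted p = 0.0319), and Myom3, another, at -0.93 ± 0.26 (edgeR adjusted p = 0.0343). None was called when any of vehicle mice 1, 2 and 3 and cotadutide mice 2 and 4 was omitted, 1 when vehicle mouse 4 was, and 2 when cotadutide mouse 3 was. Among 6 light chains tested, Myl1 (-1.27 ± 0.34, edgeR adjusted p = 0.0302) and Myl4 (-0.60 ± 0.19, edgeR adjusted p = 0.0484) were lower.

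Of 14 regulators of muscle genes, 6 were lower and none higher. Mef2c, of the MEF2 family, was at -1.32 ± 0.25 (edgeR adjusted p = 0.0156), Six4, a homeobox factor, at -0.92 ± 0.18 (edgeR adjusted p = 0.0163) and Tbx15, a T-box factor of fast fibres, at -1.16 ± 0.32 (edgeR adjusted p = 0.0324). Omitting vehicle mouse 2 left 0, vehicle mouse 1 left 1, cotadutide mouse 2 left 2, and any of vehicle mice 3 and 4 and cotadutide mice 3 and 4 left 3. The other MEF2 genes Mef2a (-0.22 ± 0.09) and Mef2d (-0.12 ± 0.08) did not pass (edgeR adjusted p = 0.107 and 0.302). Among 6 genes for myosin folding and turnover, Smyd1 (-1.31 ± 0.31, edgeR adjusted p = 0.0227), a methyltransferase needed for thick filament assembly, Unc45b (-0.61 ± 0.16, edgeR adjusted p = 0.0279), the muscle myosin chaperone, and Trim55 were lower. Unc45a, the chaperone of general cell type, was higher (0.38 ± 0.10, edgeR adjusted p = 0.0291).

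Myh7 levels followed those of the slow-fibre genes across the 9 libraries. Pearson's r between log2 levels of Myh7 and the summed slow-fibre genes was 0.981 (permutation p = 1.1e-05, adjusted 3.3e-05) and Spearman's rho 0.967 (permutation p = 0.000165, adjusted 0.000495), over 3 relations chosen after the values were seen. Without cotadutide mice 3 and 5, farthest from the Myh7 median, r was 0.963. The same libraries carry the muscle content in both measures.

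**Figure D5:**
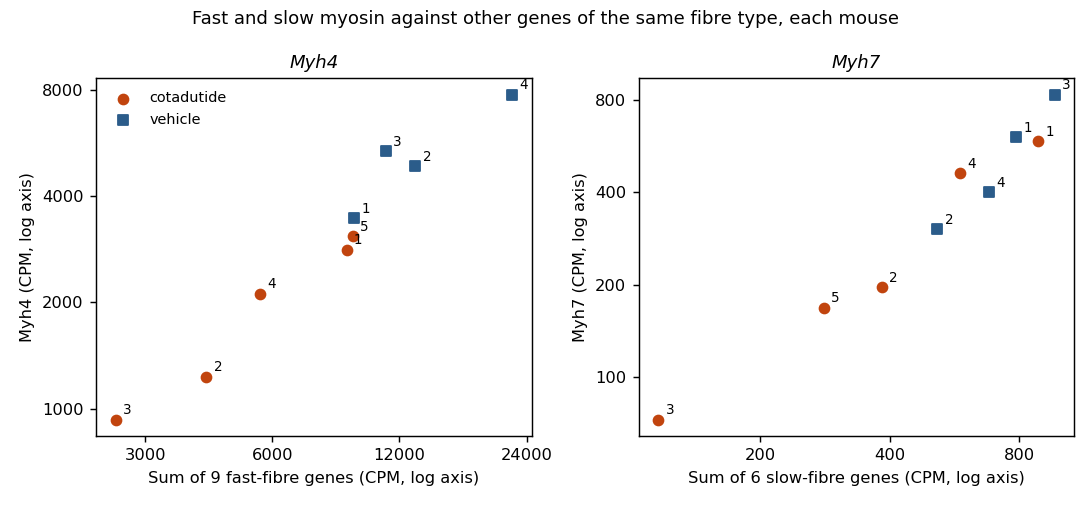
Myh4 against the summed fast-fibre genes and Myh7 against the summed slow-fibre genes, both in CPM on log axes, 1 point per mouse. Cotadutide mice 1 and 4 have slow-fibre levels within the range of the vehicle mice, and cotadutide mouse 3 is lowest in both panels.

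With group means removed, the genes most like Myh1 over 9 libraries, among 13279, were Got2, Hspb2 and Sema6c (r 0.992 to 0.995). For Myh4 they were Map3k20, Pygm and Jph1 (0.987 to 0.99), and for Myh7 Tpm3, Atp2a2 and Tnnt1 (0.976 to 0.989). Yipf7 was the most like Myh2 (0.985), Nme4 the most like Myh3 (0.959) and 1810058I24Rik the most like Myh8 (0.983). Hpn was the most like Myh7b (0.969). Dazap2 was the most like Myh6 (0.97), and this r was 0.826 without the libraries farthest from the Myh6 median. Each r is the highest found among 13279 genes, so high values arise by selection. The fast members correlated with each other at 0.803 to 0.895 and Myh7, Myh6 and Myh7b at 0.915 to 0.943, whereas Myh3 and Myh2 gave -0.049. These are descriptions over libraries that share depth and muscle content.

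The heavy chains share sequence, and some reads may be assigned to the wrong member or dropped. Of 50-base windows, 32.1% in Myh1, 28.9% in Myh2, 18.9% in Myh4, 21.4% in Myh8, 28.2% in Myh7 and 22.6% in Myh6 occurred exactly in a transcript of another gene, against 4.81% in Myh3 and 0 in Myh7b. Myh8, with few counts of its own, shared 9.56% of its windows with Myh1, 11.8% with Myh2 and 9.31% with Myh4. Antisense genes overlap some exons, and whether strand was used in counting is not stated. Myhas, antisense to Myh1 over 515 exon bases, was itself lower, by a log2 value of -1.18 (edgeR adjusted p = 0.0447). So was 9430073C21Rik, antisense to Myh2 over 237 bases, at -3.00 (edgeR adjusted p = 0.014), though it passed the filter on low counts through the vehicle mice, with 3 of 5 cotadutide and 4 of 4 vehicle libraries at its level. If strand was not used, reads of these antisense genes cannot be told apart from those of Myh1 and Myh2 on those bases.

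Markers of some other cells moved with the groups too. Among all 14747 genes tested, 1373 were higher and 1378 lower. Of 6 macrophage genes 5 were lower, with a summed level of 159 to 317 CPM in cotadutide and 248 to 435 CPM in vehicle mice. Of 6 adipocyte genes 3 were higher, among them Adipoq (0.65 ± 0.12, edgeR adjusted p = 0.0147), with sums of 18490 to 22320 CPM in cotadutide and 12730 to 15290 CPM in vehicle mice. Of 7 brown adipocyte genes 2 were higher, and none of 5 endothelial genes passed. Among 5 smooth muscle genes 1 was higher, Cnn1 (0.98 ± 0.24, edgeR adjusted p = 0.024). None of 3 tested satellite cell genes passed, with a median log2 fold change of -0.97. The part of any of these cells in the differences of the myosin genes was not tested.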

How the data were processed

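The deposited files hold raw read counts per gene for 9 brown fat libraries, made by the authors with bcl2fastq 2.17, Trimmomatic 0.36, STAR 2.5.2b and featureCounts of Subread 1.5.2 on mm10, per the submitters' processing notes. Libraries were polyA selected, per the labels' protocols. The strand setting, annotation release and handling of reads that map to several places were not given in the sources used here. Of 49315 gene IDs, 48970 matched a symbol, and the others held 0.031% of counts.

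Counts were fitted with edgeR 4.0.16 in R 4.3.3 (TMM scaling, filterByExpr, robust quasi-likelihood test, Benjamini-Hochberg adjustment over 14747 genes). DESeq2 1.42.0, limma 3.58.1 voom, other scalings and filters, a replicate block and leaving out each mouse were alternatives. The edgeR step was tested on simulated data. Shares and log2 ratios were compared by exact two-sided permutation over all splits of the 9 mice into 5 and 4, with a pseudocount of 0.1 CPM in the ratios. Intervals and the limit for 0 counts (3 counts) cover counting error only. Genes named from a list were the 3 with the smallest adjusted p. Markers outside that rule, and Tnnt1, Tnni1, Unc45a, Mef2a and Mef2d, were named after their values were seen. The members and lists were chosen with earlier results of these data known. No library pair within a group agreed within sampling noise (lowest chi-square per degree of freedom 12.7).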

Additional observations from a re-analysis of the deposited data

Results flagged for a closer look

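Of 58 groups of values checked for a sample far from the others, 4 held one, and chance alone gives about 1 group in 20. Myh6 in vehicle mouse 3 was at 2.24 CPM, with the other vehicle mice at 1.55 to 1.62 CPM. The Myh8 share of the family was 0.167% in cotadutide mouse 2, with the other cotadutide mice at 0.0324% to 0.057%. The log2 ratio of Myh1 to the 10 other muscle genes was -3.66 in vehicle mouse 1, with the other vehicle mice at -4.22 to -4.15. The log2 ratio of Myh3 to the same genes was -16.7 in cotadutide mouse 5, the library with 0 Myh3 counts, with the other cotadutide mice at -13.3 to -13.0.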

How the results depend on the processing

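Every log2 fold change of the 8 members kept its direction under each alternative run. Leaving out 1 mouse in turn gave 139 to 3704 changed genes, beside 2751, and log2 fold changes of -2.18 to -1.55 for Myh1, -2.50 to -2.03 for Myh2, -1.62 to -1.16 for Myh4, -3.84 to -3.02 for Myh3, -1.72 to -0.84 for Myh8, -1.28 to -0.57 for Myh7, -0.89 to -0.31 for Myh6 and -1.17 to -0.57 for Myh7b. It gave 0 to 4 members called, 0 to 8 fast-fibre, 0 to 2 slow-fibre and 0 to 8 thick filament genes, and 0 to 7 regulators. With no filter on low counts, Myh1 (-1.83) and Myh4 (-1.44) missed the threshold, and 2 members, 0 fast-fibre genes, 0 thick filament genes and 3 regulators were called. DESeq2 also called Myh8 (-1.48), which made 5 members, 7 fast-fibre and 2 slow-fibre genes. limma-voom called 7 fast-fibre and 2 slow-fibre genes, and library totals and the stricter filter 7 fast-fibre genes each. With 1 mouse left out, the share differences (cotadutide minus vehicle) ran from -4.95 to -2.24 points for Myh1, -0.0767 to -0.0335 for Myh3, 0.0424 to 0.0797 for Myh7b and -0.0151 to 0.021 for Myh8. Log2 ratio differences ran from -2.50 to -1.32 for Myh3, -0.33 to 0.22 for Myh8 and -0.13 to 0.55 for Myh7, and from -1.24 to -0.78 for Myh2 over Myh4 and -2.27 to -1.52 for Myh3 over Myh8, checks added after seeing the data. With a pseudocount of 1 the Myh3 ratio difference was -0.65 and that of Myh8 turned to 0.36. The cause was not tested.

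The labels share mouse numbers 1 to 4 between groups. Correlations of same-numbered deviations were 0.131, -0.05, 0.034 and -0.03. These values gave no clear sign of pairing, but they cannot show that same-numbered mice shared nothing. With a replicate block, 1355 genes were called, beside 2398 in the same 8 libraries without it, an alternative chosen after seeing the data, and 4 members, 1 fast-fibre and 3 thick filament genes were lower; without it, 8 fast-fibre genes were. Depth limits Myh3, Myh8 and Myh6 most.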

Other observations

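Genes of immature or denervated fibres were few in counts. Of 5 tested, Ankrd1, a stress-responsive ankyrin-repeat protein, was lower (-3.82 ± 0.76, edgeR adjusted p = 0.0163), as was Runx1, a transcription factor (-0.69 ± 0.22, edgeR adjusted p = 0.0464). Ankrd1 passed the filter on low counts through the vehicle mice, since 2 of 5 cotadutide and 4 of 4 vehicle libraries reached 0.543 CPM. It averaged 0.469 ± 0.336 CPM in cotadutide and 7.12 ± 7.49 CPM in vehicle mice (SD, n = 5 and 4).

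The nonmuscle and smooth muscle heavy chains Myh9, Myh10, Myh11 and Myh14 had a median log2 fold change of -0.12, and none of the 4 passed the edgeR test. Myh9, the most abundant, averaged 111 ± 12.7 CPM in cotadutide and 136 ± 21.2 CPM in vehicle mice (SD, n = 5 and 4). Among cardiac genes, Actc1 (-1.84 ± 0.44, edgeR adjusted p = 0.0227), the cardiac actin, and Ryr2 (-0.59 ± 0.16, edgeR adjusted p = 0.0293), a calcium release channel, were lower.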
